A study of Homo sapiens with 28 samples.

Results

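The genes described here are 9 genes of the osteoblast lineage and its collagen-rich matrix: the transcription factor genes RUNX2 and MSX2, the fibrillar collagen genes COL1A1, COL1A2, COL3A1, COL5A1 and COL5A2, and the matrix glycoprotein genes FN1 and SPARC. They are a list of genes named by their role, drawn up with earlier results of these data known, and each was measured over its gene body in GENCODE v44 plus 10 kb either side. They are 9 of 19970 protein-coding genes measured in the same way. The U2OS line used throughout is a human osteosarcoma line, so these genes belong to the mesenchymal and bone lineage of the tumour from which it came. The files hold peaks and no expression values, so the label was not checked against expression.

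The study asked where the ASH1L methyltransferase and its histone marks lie on chromatin after ultraviolet damage. Chromatin immunoprecipitation sequencing for dimethylated lysine 36 of histone H3 (H3K36me2) was done in wild-type U2OS cells, with 2 peak lists without UV and 2 lists at 3 h after UV-C of 20 J per square metre. The Flag-tagged C-terminal part of ASH1L (CTD) was immunoprecipitated from ASH1L knockout U2OS cells, with 3 lists without UV and 3 lists at 3 h after the same dose. The knockout was made with CRISPR/Cas9 and grown from isolated colonies, and it is shared by all 6 CTD lists, with and without UV. The CTD came from a plasmid with a CMV promoter, by transient transfection, so its amount and timing were not those of the native protein. Peaks of H3K36me2 were called against input DNA, and peaks of CTD against libraries of empty-vector cells, which were pooled at 3 h and matched one to one without UV. This difference in the control cannot be told apart from UV.

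H3K36me2 is written by the methyltransferases NSD1, NSD2, NSD3 and ASH1L and lies mostly between genes and in the introns of genes. Along strongly transcribed gene bodies SETD2, travelling with RNA polymerase II, converts it to trimethylation, and H3K36me2 hinders the repressive PRC2 complex. In osteoblasts RUNX2 is the master regulator of commitment, MSX2 is a homeobox factor of skull and tooth development, types I, III and V collagen build the fibrils, fibronectin (FN1) forms the scaffold on which collagen is laid down, and SPARC (osteonectin) binds collagen and calcium.

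Every list held 500000 peaks, so a list reports the best-ranked peaks and not a fixed quality. Of these, 204043 to 224811 peaks per H3K36me2 list reached a −log10 p of 2, but only 29323 to 42078 per CTD list did. The H3K36me2 lists covered 15.7% and 15.2% of the genome without UV and 13.8% and 14.2% at 3 h. The CTD lists covered 9.23% to 11.5%. CTD replicate 1 without UV and CTD replicate 3 at 3 h stood apart from the other CTD lists, with a 95th percentile of gene cover of 40.6% and 36.5% against 20.3% to 25.0% in the other 4. CTD levels, sites, shared bases and UV differences are therefore given also without one or both of them, a choice made after seeing the data. The peak lists hold no read counts, so the depth behind a value cannot be read from them. The labels call the replicates biological replicates of the cell line.

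Promoter sequences of 5 of the 9 genes (RUNX2, MSX2, COL5A1, FN1 and SPARC) matched the RefSeq table of GRCh38.p14, and each sequence runs 5′ to 3′ from 250 bases before to 50 bases after the RefSeq start. RUNX2 has an upstream promoter (P1), which drives the bone isoform, and an internal promoter (P2). They are shown because both lay outside every H3K36me2 peak and because they differ in the core RUNX motif. Capitals mark that motif, TGTGGT or its reverse complement ACCACA. P1 lies at chr6:45328080-45328379 and P2 at chr6:45422025-45422324, both on the plus strand.
RUNX2 P1: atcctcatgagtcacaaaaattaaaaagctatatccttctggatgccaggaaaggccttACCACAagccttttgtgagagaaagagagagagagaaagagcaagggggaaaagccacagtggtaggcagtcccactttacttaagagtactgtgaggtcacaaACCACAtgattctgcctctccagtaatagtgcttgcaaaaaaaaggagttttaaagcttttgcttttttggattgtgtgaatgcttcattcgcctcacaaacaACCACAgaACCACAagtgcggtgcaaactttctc
RUNX2 P2: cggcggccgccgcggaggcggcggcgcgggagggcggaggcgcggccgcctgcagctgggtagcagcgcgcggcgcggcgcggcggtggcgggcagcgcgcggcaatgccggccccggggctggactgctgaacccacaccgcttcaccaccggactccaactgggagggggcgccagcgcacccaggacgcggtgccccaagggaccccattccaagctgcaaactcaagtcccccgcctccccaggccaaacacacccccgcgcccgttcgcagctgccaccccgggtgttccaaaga
P1 held the motif 4 times, starting at −191, −87, +17 and +25 from the RefSeq start, and P2 did not hold it. The motif was present in 13.1% of 35116 RefSeq promoters, and 5 of them, P1 included, held it 4 times or more. P1 had 42.7% GC and 2 CG dinucleotides, while P2 had 76.0% GC and 39 CG dinucleotides. H3K36me2 covered none of the 300 bases of either promoter in any of the 4 lists. CTD covered all of P1 in 1 list (3 h, replicate 1) and all of P2 in 2 lists (3 h, replicates 1 and 3). It covered neither in any list without UV, a difference that was not tested. Replicate 3 at 3 h is a list that stood apart. Per CTD list, 48.0% to 66.8% of all genes had a peak within 1 kb of their start. A match to the motif describes letters and not binding.

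The SPARC and FN1 promoters are shown because H3K36me2 stopped just short of the first and was absent around the second. SPARC lies on the minus strand, with its promoter at chr5:151686866-151687165, and capitals mark the 25 bases under an H3K36me2 peak in replicate 1 without UV, the only list in which the mark reached into the window. FN1 lies on the minus strand, with its promoter at chr2:215436019-215436318, and capitals mark a CCAAT box (CCAAT, or ATTGG on the other strand).
SPARC: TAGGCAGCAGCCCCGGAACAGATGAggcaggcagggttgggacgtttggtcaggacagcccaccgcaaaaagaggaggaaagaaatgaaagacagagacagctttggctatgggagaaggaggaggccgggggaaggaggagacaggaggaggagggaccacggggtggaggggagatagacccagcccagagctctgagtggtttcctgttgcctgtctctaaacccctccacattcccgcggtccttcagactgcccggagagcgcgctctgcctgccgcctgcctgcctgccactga
FN1: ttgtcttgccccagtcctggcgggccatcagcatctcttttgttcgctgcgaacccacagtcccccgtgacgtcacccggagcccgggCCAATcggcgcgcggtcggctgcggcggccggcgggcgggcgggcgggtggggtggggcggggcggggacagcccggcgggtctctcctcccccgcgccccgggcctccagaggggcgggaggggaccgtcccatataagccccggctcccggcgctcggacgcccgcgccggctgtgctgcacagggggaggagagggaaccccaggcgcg
The FN1 box started at −162, and 34.6% of RefSeq promoters held this motif. The FN1 promoter was GC-rich, with 76.7% GC and 38 CG dinucleotides. It was free of both H3K36me2 and CTD in all 10 lists, while CTD covered the whole SPARC window in replicate 2 without UV and in replicate 3 at 3 h.

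RUNX2 had the highest mean H3K36me2 cover of the 9 genes and FN1 the lowest, with and without UV. Peaks covered 45.2% and 39.9% of the RUNX2 window without UV, and 40.2% and 44.2% at 3 h. FN1 was covered over 3.15% and 2.83% without UV, and over 2.54% and 4.62% at 3 h. The 2 groups overlapped for both genes. The median over all genes was 9.24% and 10.1% without UV and 5.74% and 5.70% at 3 h, so RUNX2 stood far above and FN1 below the typical gene in every list.

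Without UV the order of mean H3K36me2 cover was RUNX2 (42.5% ± 3.76, SD, n = 2), COL1A1 (39.0% ± 1.57), COL1A2 (33.8% ± 2.07), SPARC (22.7% ± 1.76), MSX2 (20.3% ± 0.153), COL3A1 (17.5% ± 5.03), COL5A1 (17.2% ± 2.54), COL5A2 (14.6% ± 0.465) and FN1 (2.99% ± 0.231). The ranges of RUNX2 and COL1A1 overlapped, as did those of MSX2 and COL3A1 and those of COL3A1 and COL5A1. The other neighbours in this order did not overlap. Among all genes, RUNX2 lay at percentile 96.1, COL1A1 at 94.7, COL1A2 at 91.9 and FN1 at 20.9, and the other 5 lay between 64.5 and 80.2. Over these windows, flanks included, the chains of type I collagen carried more of the mark in every list than those of types III and V. This did not hold for the gene body alone, where mean cover without UV was 30.9% for COL1A2 but 0.744% for COL1A1. It was 10.3% for COL3A1, 14.5% for COL5A1 and 14.0% for COL5A2.

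**Figure D1:**
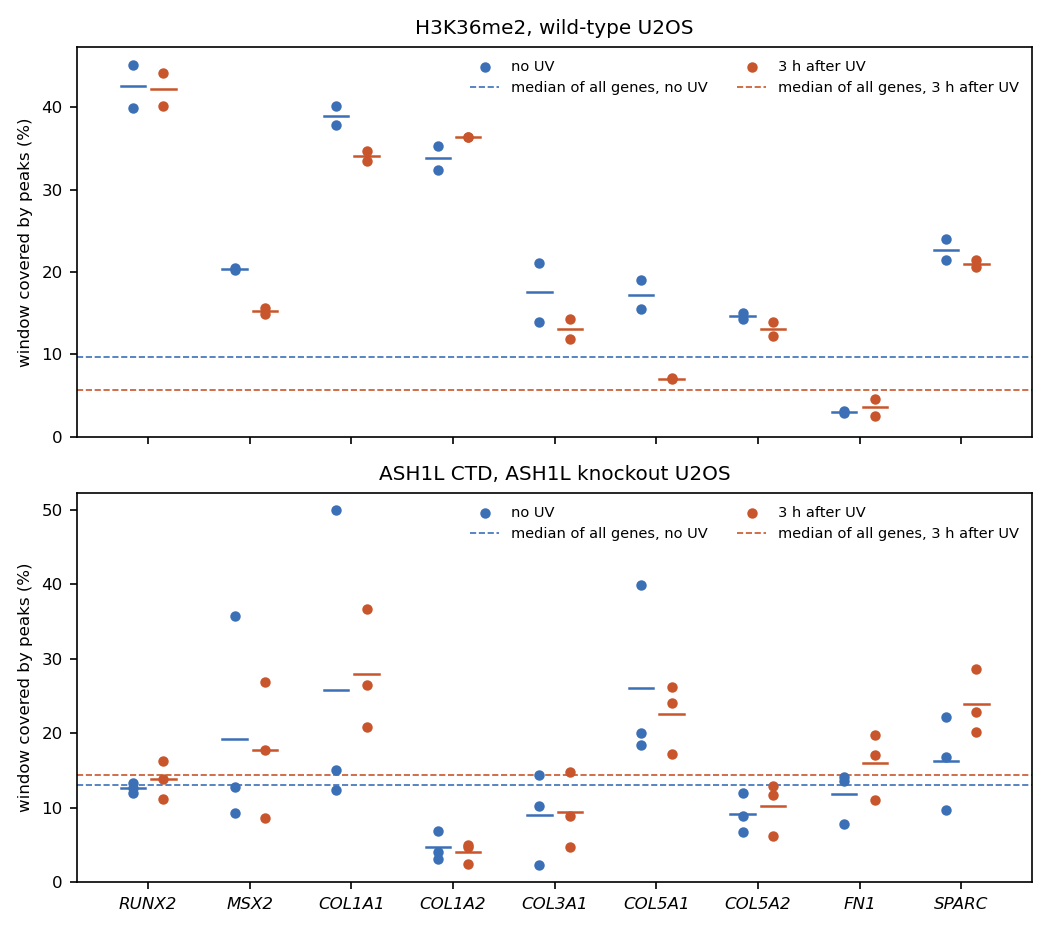
Percent of each gene's window covered by peaks (vertical axis) for the 9 genes, H3K36me2 above and CTD below. Points are single lists (blue without UV, red 3 h after UV), short bars the group means and dashed lines the mean over lists of the median of all genes; COL5A1 drops from 15.4% and 19.0% to 6.99% and 7.09% in H3K36me2, while the CTD groups overlap for every gene.

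The mark was laid out along the 9 genes in clearly different ways. In SPARC, COL1A1 and COL5A1 it covered most of the 10 kb before the gene and stopped close to the gene start. In RUNX2 it built up towards the 3′ end of the annotated gene, which is longer than the canonical transcript. In COL1A2 it lay over the upstream 10 kb, the promoter and the 3′ part. In FN1 it was scarce in the gene body but not upstream.

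SPARC and COL1A1 showed the clearest boundaries. In SPARC the 10 kb upstream were covered over 88.7% and 87.7% without UV and over 88.0% and 79.5% at 3 h, and the gene body of 25.9 kb held no H3K36me2 base in any of the 4 lists. The upstream peaks ended 166 and 306 bp before the gene without UV, and 384 and 833 bp before it at 3 h. These distances were not tested, and peaks were narrower in the 3 h lists, with a median width of 556 and 582 bp against 621 and 611 bp. No base was covered over a stretch of 26.8 kb, which held all 10 exons. The upstream site spanned chr5:151687141-151699005 (hg38), overlapped an antisense long non-coding RNA gene (CLMAT3), was present in all 4 lists and had a fold enrichment of 2.15 to 2.40.

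COL1A1 had the same layout. Its 10 kb upstream were covered over 94.1% and 90.7% without UV and over 77.3% and 78.5% at 3 h, while the all-gene median of upstream cover was 9.71% without UV and 5.03% at 3 h. In the gene body of 17.5 kb, the only covered bases were in replicate 2 without UV, where the upstream peak ran into exon 1. A stretch of 17.9 kb was free of the mark in all 4 lists. The edge of the upstream peak lay 111 bp before the gene in replicate 1 without UV, and 219 and 193 bp before it at 3 h. The downstream 10 kb were again covered, over 48.1% to 57.2% without UV. The site in all lists with the highest minimum enrichment lay farther upstream, spanned chr17:50210791-50218084 and overlapped 2 long non-coding RNA genes.

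COL5A1, a gene of 203 kb, had an upstream site of 25.4 kb, chr9:134615634-134641055, which lay between genes, ended 748 bp before the gene start and was present in all 4 lists. Its 10 kb upstream were covered over 84.2% and 91.2% without UV. Unlike in SPARC and COL1A1, the mark resumed inside the gene, with 45.5% and 47.4% of the first of 5 equal bins and 14.3% and 23.6% of the second bin covered. The last 3 bins averaged 3.5%, 2.1% and 1.4%. Inside COL5A1, exon bases were covered over 0% to 3.66% and intron bases over 4.89% to 16.7% in the 4 lists. The gene has 8442 exon and 194599 intron bases, so peaks placed anywhere would lie mostly in introns. Whether the gap between exons and introns follows from where the mark lies along the gene was not tested.

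The contrast between upstream cover and body cover was extreme for these 3 genes among all 19970. Without UV, mean upstream cover minus mean body cover was 91.7 percentage points for COL1A1, the largest of all genes, 88.2 for SPARC, which ranked 4, and 73.2 for COL5A1, which ranked 42. At 3 h SPARC ranked 2, COL1A1 ranked 7 and COL5A1 ranked 235. The median over all genes was 0.28 percentage points without UV. RUNX2 stood at the opposite end, with −39.2 points and rank 19452. This measure was chosen after the layout had been seen and is given without a test. With peaks of −log10 p of 2 or more the ranks were 2, 7 and 16 for COL1A1, SPARC and COL5A1, and with peaks of 3 or more they were 4, 445 and 755.

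**Figure D2:**
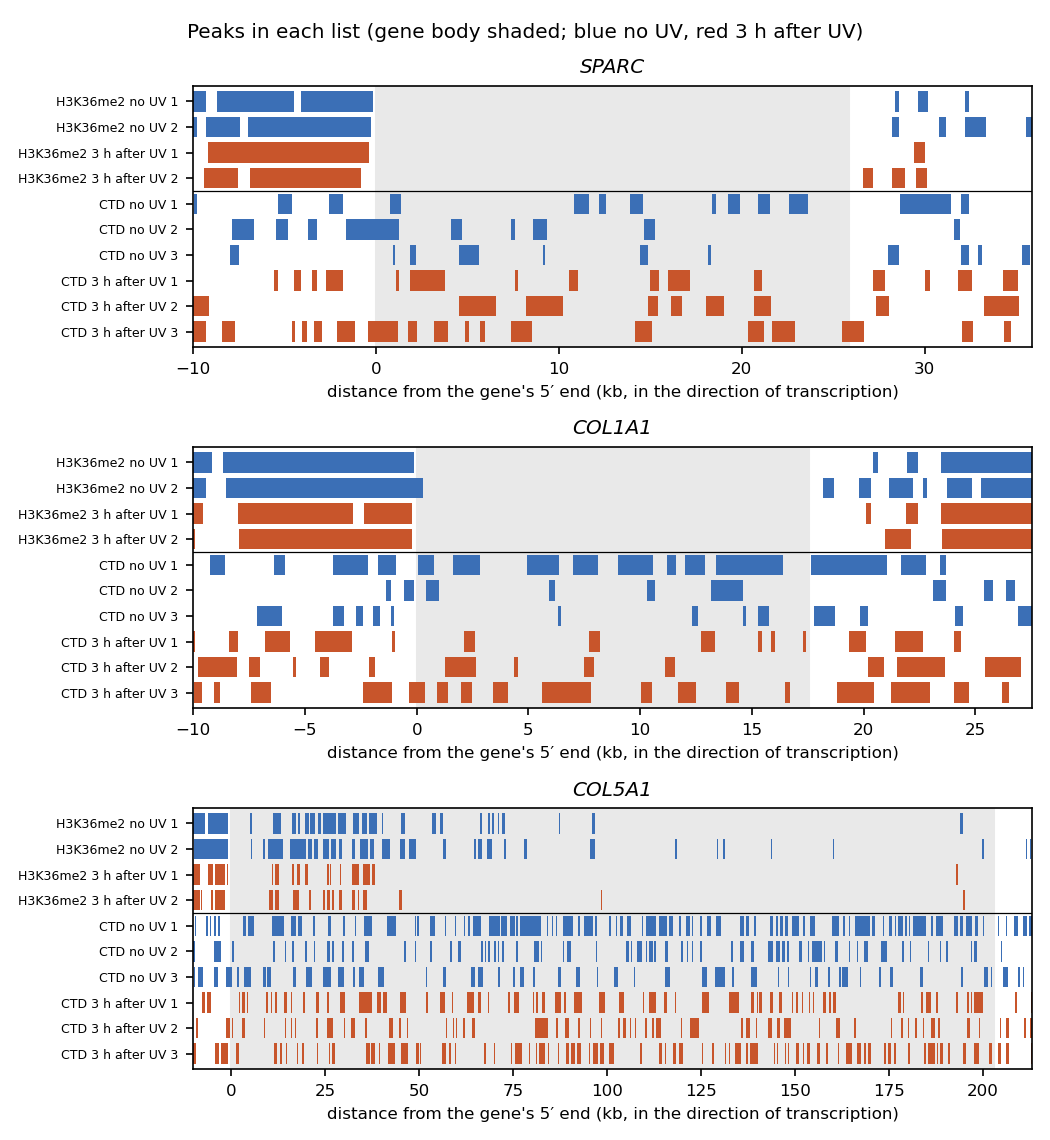
Peaks of each of the 10 lists (rows; blue without UV, red 3 h after UV) along SPARC, COL1A1 and COL5A1, plotted by distance from the gene's 5′ end in kb, with the gene body shaded. H3K36me2 fills the upstream flank of SPARC and COL1A1 and stops at the gene start, whereas CTD peaks lie both inside and outside the shaded bodies.

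RUNX2 was the reverse of these matrix genes. Only 7.06% and 2.64% of its upstream 10 kb carried H3K36me2 without UV, and the 5 equal bins of its 336-kb body averaged 24.9%, 37.8%, 27.9%, 55.8% and 73.7% from 5′ to 3′. At 3 h the same bins averaged 22.2%, 35.4%, 33.2%, 59.8% and 70.0%. These bins divide the annotated gene, which is longer than the canonical transcript, with 5540 exon and 217213 intron bases. Introns of that transcript were covered over 27.6% to 34.5% in the 4 lists, against 41.2% to 46.9% of the annotated body. The build-up therefore describes the annotated gene and not that transcript. Of 115 merged H3K36me2 sites in its window, 59 were present in all 4 lists, 3 only in both lists without UV and 3 only in both lists at 3 h. The longest, of 34.2 kb, lay 305 kb into the gene. The site in all lists with the highest minimum enrichment was chr6:45434830-45435989, in an intron, with a fold enrichment of 2.32 to 2.92. The first covered base inside the gene lay 13.7 and 12.3 kb from its 5′ end without UV. At 3 h it lay 2.76 and 2.54 kb from that end. In the downstream 10 kb, cover was 27.44% and 30.94% without UV and lower, 12.44% and 12.05%, at 3 h. Both differences were seen in the peaks after the fact and were not tested.

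**Figure D3:**
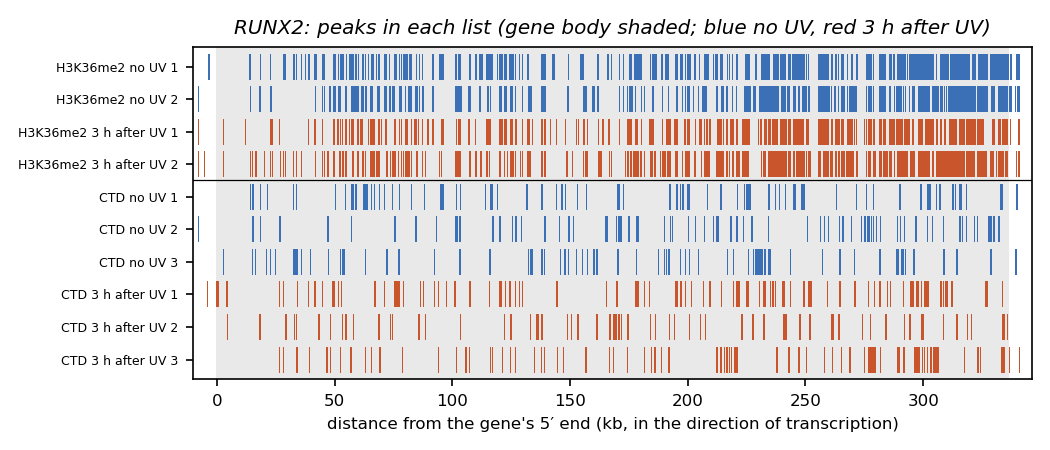
Peaks of each of the 10 lists (rows; blue without UV, red 3 h after UV) along RUNX2, by distance from the gene's 5′ end in kb, with the gene body shaded. H3K36me2 peaks crowd together towards the 3′ end of the annotated gene, where the last bin is covered over 73.7% without UV and 70.0% at 3 h. The canonical transcript, with 5540 exon and 217213 intron bases, is shorter than the shaded body.

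MSX2, a gene of 6.32 kb with 2 exons, carried H3K36me2 in its intron and not in its exons. In all 4 lists 0% of exon bases were covered, against 15.5% to 24.4% of intron bases. Its first bin and its last 2 bins held no covered base in any list. Of the sites in all 4 lists, the one with the highest minimum enrichment lay downstream of the gene, at chr5:174734424-174736691, with a fold enrichment of 2.11 to 2.38.

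COL1A2 had the mark at its promoter and over its exons. Its partner chain gene COL1A1 shared the first and not the second. Its upstream 10 kb were covered over 50.6% to 67.2% in the 4 lists, and at 3 h both lists (66.9% and 64.1%) lay above both lists of COL5A1. Its first base lay under an H3K36me2 peak in all 4 lists, and 55.6% to 88.2% of the 2 kb around its start were covered, against 39.1% to 63.1% for COL1A1. Exon bases were covered over 47.7% and 41.9% without UV and over 52.0% and 56.6% at 3 h, and intron bases over 31.1% and 26.1% and then 32.8% and 32.9%. Over the gene body as a whole, COL1A2 was the member with both 3 h lists above both lists without UV, as were 5.93% of all genes. The leading site, chr7:94422626-94428624, took in exons 40 to 50. COL1A1 held at most 3.74% of its exon bases in any list.

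COL3A1 and COL5A2 lie next to each other on chromosome 2, transcribed in opposite directions, and their windows share 849 bp. COL3A1 had a scattered pattern, with only 4 of 28 sites in all 4 lists and 14 in a single list. COL5A2 had 65 sites, 20 of them in all 4 lists, and its first 3 bins averaged 29.1%, 17.4% and 19.6% without UV against 3.9% and 0% in the last 2. These bins divide an annotated gene of 193 kb, longer than the canonical transcript, which has 6829 exon and 141035 intron bases. The exons of that transcript were bare in 3 of the 4 lists and covered over 0.791% in the fourth. FN1 had 21.1% to 33.4% of its upstream 10 kb covered, above the all-gene medians of 9.71% without UV and 5.03% at 3 h. It kept a stretch of 38.9 kb without any covered base, and its 2 sites present in all lists both lay upstream, centred at −6.37 and −8.94 kb from the gene start.

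**Figure D4:**
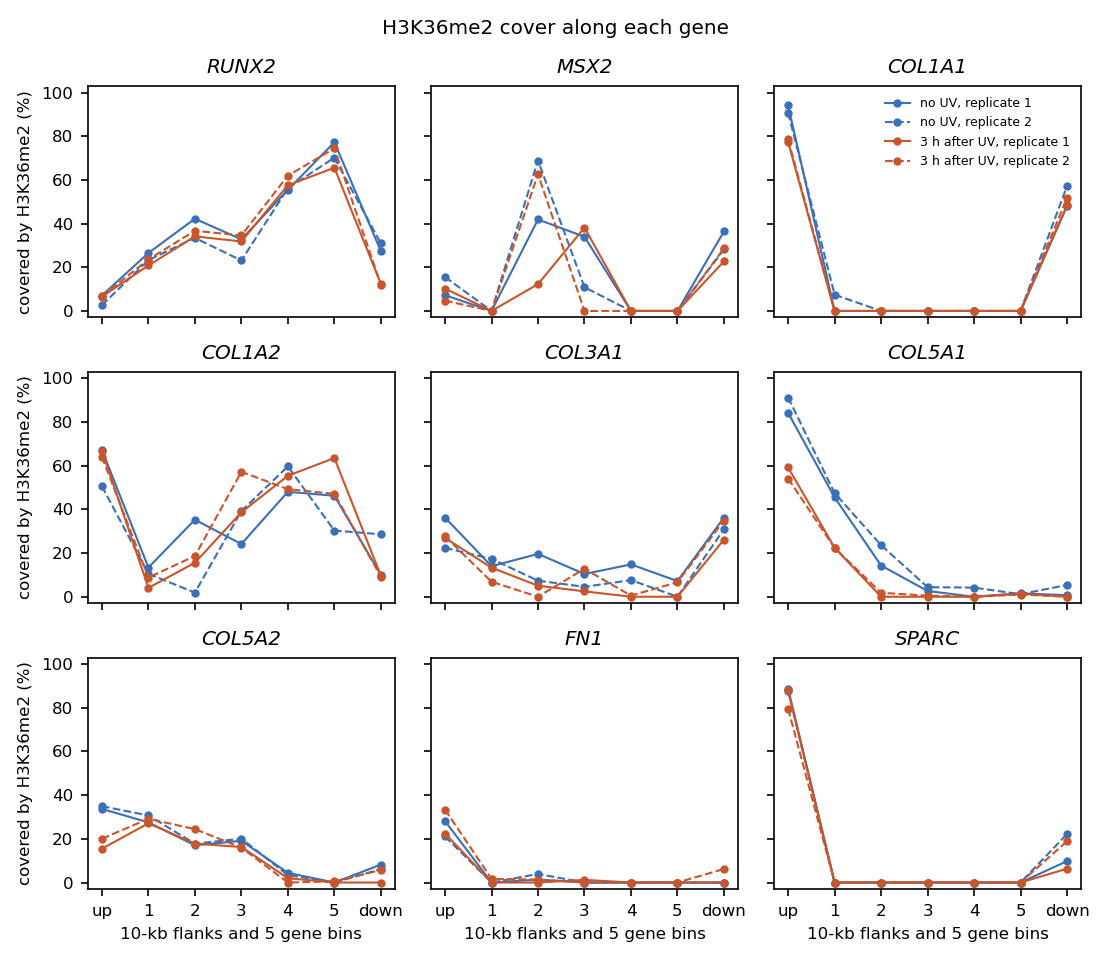
Percent of each segment covered by H3K36me2 (vertical axis) in the 10 kb upstream, the 5 equal bins of the gene body from 5′ to 3′ and the 10 kb downstream, for each gene and list (blue without UV, red 3 h after UV; solid replicate 1, dashed replicate 2). SPARC and COL1A1 drop to 0 or near 0 at the gene start, RUNX2 is highest in its last 2 bins, and COL5A1 is lower at 3 h than without UV in its upstream flank and first 2 bins.

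The question for UV was whether the cover of these genes differed at 3 h. COL5A1 was the member with the largest difference in H3K36me2. Its window was covered over 15.4% and 19.0% without UV, and over 6.99% and 7.09% at 3 h, so the groups did not overlap. In bases this was 34.5 and 42.5 kb against 15.6 and 15.8 kb, and in peak centres 26 and 31 against 15 and 17. Relative to the genome-wide cover of each list, and with 1 percentage point added, cover at 3 h was 0.489 of that without UV. In limma this was a log2 difference of −1.03 (SE 0.150, 95% interval −1.45 to −0.62, unadjusted p = 0.00224). The adjusted p (Benjamini-Hochberg over all genes) was 0.0837, which missed 0.05, and the lowest adjusted p of any gene in that fit was 0.0829.

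Most of the COL5A1 difference in covered bases lay in the 5′ part of the window, where most of the mark was. The upstream 10 kb were covered over 59.2% and 54.1% at 3 h, the first bin over 22.4% and 22.3%, and the second bin over 0% and 1.81%, each below both lists without UV. The third bin (2.63% and 4.39% without UV, at most 0.505% at 3 h) and the downstream 10 kb (0.7% and 5.38% without UV, 0% at 3 h) were also lower in both 3 h lists. For comparison, 52% of all genes had less cover in both 3 h lists than in both lists without UV. In COL5A1, 8 of 36 merged sites were present in all 4 lists. Another 7 were present in both lists without UV and in neither list at 3 h, and none showed the opposite. These counts were 3 and 0 in COL3A1, 3 and 1 in COL5A2, 3 and 3 in RUNX2, 2 and 0 in SPARC and 1 and 0 in MSX2. COL1A1, COL1A2 and FN1 had no such site either way. The share over all sites of the genome was not computed. Of the 7 in COL5A1, the site with the highest minimum enrichment was picked after its values were seen. It was chr9:134681919-134684074, in an intron 41.2 kb from the gene start, with a fold enrichment of 1.89 to 1.91. Its sequence is shown because it is a concrete stretch that the mark covered only without UV. It is the 230 bases, chr9:134682118-134682347 (hg38, plus strand), at the centre of the longest stretch covered in both lists, with CG dinucleotides in capitals.
COL5A1 site: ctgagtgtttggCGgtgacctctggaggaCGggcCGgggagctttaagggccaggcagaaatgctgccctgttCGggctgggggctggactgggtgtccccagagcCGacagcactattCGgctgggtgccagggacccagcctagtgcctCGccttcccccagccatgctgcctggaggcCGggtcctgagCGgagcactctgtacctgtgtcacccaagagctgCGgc
This stretch had 66.5% GC and 10 CG dinucleotides.

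Of the other members, COL1A2 was the only one with more cover in both 3 h lists than in both lists without UV, at 36.4% and 36.4% against 35.3% and 32.3%. MSX2 (14.9% and 15.7% against 20.2% and 20.4%), COL1A1 (33.5% and 34.7% against 37.9% and 40.1%), COL5A2 (12.2% and 13.9% against 14.3% and 15.0%) and SPARC (20.6% and 21.5% against 21.5% and 24.0%) had less. The SPARC groups nearly touched. RUNX2, COL3A1 (21.1% and 14.0% without UV, 11.8% and 14.2% at 3 h) and FN1 overlapped. With COL5A1, 5 of 9 genes lay wholly lower and 1 wholly higher. Among all genes, 52% lay wholly lower and 6.42% wholly higher, so the members' counts were near the background. Relative to the genome-wide cover of each list, 2 members (COL5A1 and MSX2) lay wholly lower and 2 (COL1A2 and RUNX2) wholly higher, as did 43.1% and 17.1% of all genes.

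Relative to genome-wide cover, no difference in the other 8 members passed the test. Their log2 differences ran from −0.25 for MSX2 to 0.30 for FN1, with adjusted p from 0.422 to 0.940 in limma. COL1A1 (−0.05), COL5A2 (−0.02) and SPARC (0.04) were close to 0, but with only 2 lists a group the 95% intervals were wide, from −0.69 to 0.60 for COL1A1. Without scaling to genome-wide cover, which moved the median of all genes from −0.28 to −0.42, RUNX2 (−0.01) and SPARC (−0.11) turned negative. The median over the 9 members in the scaled fit was −0.02. No member was called at an adjusted p of 0.05, and 0% of all genes were (0 of 19970), while 5110 genes, 4448 of them lower at 3 h, and 1 member had an unadjusted p under 0.05. COL5A1 reached an adjusted p under 0.05 in 4 alternative settings, with values from 0.00546 to 0.0439, in which limma also called 825 to 10172 genes, and 2 of the 4 couple the replicates by construction. With peaks of −log10 p of 3 or more its difference was −0.35 (adjusted p = 0.609). Over all 9 windows together, H3K36me2 covered 25.5% ± 0.866 without UV and 22.6% ± 1.44 at 3 h, with a two-sided exact permutation p of 0.3333, the smallest that 2 against 2 lists allow.

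**Figure D5:**
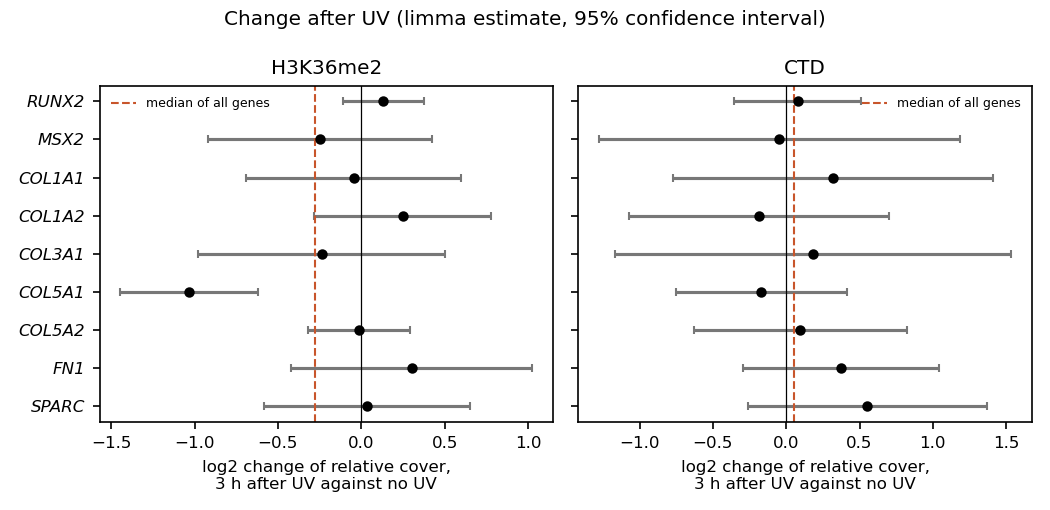
Log2 difference in relative cover at 3 h after UV against no UV (horizontal axis) for the 9 genes, with H3K36me2 on the left and CTD on the right. Points are limma estimates, bars 95% confidence intervals and dashed lines the median of all genes; COL5A1 in H3K36me2, at −1.03, is the only member whose interval excludes 0.

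CTD was spread over the 9 genes in another way, and with weaker peaks. Within the members' windows, 14 to 27 of 240 to 277 peaks per CTD list reached a −log10 p of 2, against 126 to 138 of 232 to 244 per H3K36me2 list. The highest fold enrichment of any CTD peak at these genes was 3.08. In contrast, 13 or 14 peaks with −log10 p of 10 or more lay in the ASH1L gene in each CTD list. No H3K36me2 list held such a peak there. The transfected plasmid carries part of the ASH1L coding sequence, and whether its DNA gave these peaks was not tested.

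COL5A1 and COL1A1 had the highest mean CTD cover without UV, and COL1A1, SPARC and COL5A1 had the highest at 3 h. COL5A1 was covered over 39.9%, 18.4% and 20.0% without UV and over 24.1%, 17.3% and 26.3% at 3 h. COL1A1 was covered over 49.9%, 12.4% and 15.0% without UV and over 20.9%, 26.5% and 36.7% at 3 h. In both genes replicate 1 without UV was far above its fellow lists, and the groups overlapped. COL5A1 lay at percentile 97.5 of all genes without UV and at 93.2 without that list, but COL1A1 moved from 97.1 to 59.1 and MSX2 from 78.3 to 38.2. At 3 h, COL1A1 lay at percentile 98.3, SPARC at 92.1 and COL5A1 at 88.1, and without replicate 3 at 96.3, 92.2 and 89.7. Without these lists the same 3 genes had the highest means in both conditions, in the order COL5A1, COL1A1 and SPARC without UV and COL1A1, SPARC and COL5A1 at 3 h. The windows also differed in base composition, with 56.7% GC for COL1A1 and 56.0% for COL5A1 against 34.8% to 47.6% for the other 7, and the part of GC in CTD cover was not tested.

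COL1A2 had the lowest mean CTD cover, with 3.14%, 6.93% and 4.13% without UV and 5.02%, 4.74% and 2.53% at 3 h. It stood at percentile 12.6 without UV (15.2 without replicate 1). SPARC had 22.2%, 16.8% and 9.78% without UV and 20.1%, 22.9% and 28.6% at 3 h. MSX2 had 35.8%, 9.30% and 12.8%, then 17.7%, 8.66% and 26.9%. RUNX2 had at most 13.3% without UV and between 11.2% and 16.3% at 3 h. COL3A1 (2.29% to 14.8% over the 6 lists), COL5A2 (6.18% to 13.0%) and FN1 (7.81% to 19.8%) completed the set, and every neighbouring pair in the order of CTD cover overlapped, with and without UV.

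COL5A1 had 12 of 106 CTD sites present in all 6 lists, against 2 each in RUNX2 and COL1A1, 1 each in COL5A2 and SPARC and none in the other 4. With the peaks of the 4 lists that did not stand apart, COL5A1 had 9 sites in all 4, RUNX2 had 8, COL5A2 had 4, FN1 had 3, COL3A1 and SPARC had 1 each and the other 3 had none. Of those 12 sites 11 lay in the gene body and 8 of these touched exons. The site with the highest minimum enrichment, chr9:134730096-134735176, took in exons 7 to 9 with a fold enrichment of 1.79 to 2.22. In COL1A1 the corresponding site was centred at −2.73 kb from the gene start, at chr17:50202558-50206166, inside the large H3K36me2 block, and in RUNX2 at chr6:45616697-45620966, inside the longest H3K36me2 site. Unlike H3K36me2, CTD did not stop at the starts of SPARC and COL1A1, whose gene bodies were covered over 8.73% to 19.9% and 5.88% to 59.3% without UV. Without replicate 1 the highest values were 13.3% and 15.1%.

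No difference in CTD at 3 h passed the test in any member. None of the 9 genes had groups that did not overlap, where 5.07% of all genes lay wholly higher and 2.24% wholly lower at 3 h. In limma, 0 of 19970 genes (0%) passed an adjusted p of 0.05, 535 had an unadjusted p under 0.05, and none of these was a member. The log2 differences ran from −0.19 for COL1A2 to 0.55 for SPARC (SE 0.368, 95% interval −0.26 to 1.37), with a median of 0.10 against 0.05 over all genes, and every adjusted p was 0.9999. Without replicate 1 of the no-UV lists, COL1A1 and SPARC lay wholly higher at 3 h, as did 17% of all genes. Without replicate 2 at 3 h FN1 and RUNX2 did, with 10% of all genes, and without replicate 1 at 3 h SPARC did, with 11%. With both outlying lists left out, COL1A1 and SPARC again lay higher, as did 21.8% of all genes. CTD covered 14.8% ± 3.27 of all 9 windows without UV and 15.4% ± 1.79 at 3 h (two-sided exact permutation p = 0.9, smallest possible 0.1).

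Bases under both marks were few. Of the RUNX2 bases under CTD in at least 2 of 3 lists without UV, 55.7% lay under H3K36me2 in both lists, and 54.5% did so at 3 h. This share was the highest of the 9 genes in both conditions, and RUNX2 also had a high share of its window, 30.5% in each condition, under H3K36me2 in both lists. Counted over the whole window, bases under both marks made up 3.09% and 3.71% of RUNX2 and 4.18% and 6.03% of COL1A1. The product of the window's shares under CTD and under H3K36me2 was 1.69% and 2.08% for RUNX2. For COL1A1 this product was 5.56% and 5.48%. With the outlying CTD lists left out, and bases under both remaining lists counted, the share of CTD bases was 43.1% and 48.0% in RUNX2. It was then no longer the highest without UV, since all 120 CTD bases of MSX2 lay under H3K36me2. COL1A1 then had no base under CTD without UV, and 1.58% of its window under both marks at 3 h. The marks came from different cells, so these are shared positions and not shared chromatin fibres.

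Genes that work with these members, in lists also drawn up with earlier results known, were measured beside them. Among 33 genes of collagen modification and matrix assembly, 14 genes of collagen and fibronectin receptors and 20 genes of other osteoblast regulators, none passed an adjusted p of 0.05 in either direction in either mark. Median H3K36me2 cover was 15.6% without UV and 8.34% at 3 h in the first list, 21.5% and 18.5% in the second and 11.6% and 9.53% in the third, against 9.68% and 5.72% for the mean of the medians over all genes. At 3 h, 18, 10 and 12 genes lay wholly lower and 4, 0 and 1 wholly higher, where 52% and 6.42% of all genes did. SERPINH1, the collagen chaperone, had the highest cover of the assembly genes without UV (37.1%) and LUM, encoding the proteoglycan lumican, the lowest (2.11%). ITGB3, an integrin beta chain, led the receptors (60.1%), where the integrin chain gene ITGAV was lowest (3.89%). RUNX3, a relative of RUNX2, led the regulators with 51.2%, and ATF4, a transcription factor of amino acid supply, had no covered base in any of the 4 lists.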

How the data were processed

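The members and gene lists were chosen with earlier results of these data known. The authors trimmed reads (Trim Galore 0.6.5), mapped them with BWA 0.7.17-r1188 to an hg38 assembly lacking chromosome Y, discarded poorly mapped and duplicate reads and blacklisted regions, and ran MACS2 2.2.7.1 in broad mode on each replicate at p of 0.01. The deposited lists give fold enrichment over control, a linear ratio, and −log10 p per peak. The lists stop at 500000 peaks, with the lowest −log10 p between 1.22 and 1.42, and give no counts.

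From these, the percent of each gene body plus 10 kb either side (19970 protein-coding genes, GENCODE v44) under any peak was computed. Exons and introns were those of the Ensembl canonical transcript, which was much shorter than the annotated gene in RUNX2 and COL5A2. Log2((percent + 1)/genome-wide percent) was fitted with limma 3.58.1 in R 4.3.3, per mark, with a variance trend on window length and Benjamini-Hochberg adjustment over all genes, and tested on simulated data. All 9 members were named. Of each accompanying list, the genes with the highest and lowest H3K36me2 cover without UV were named, and for each member the site shared by most lists, ties going to the highest minimum enrichment. Peak centres, higher −log10 p thresholds, peaks overlapped by other replicates, a larger pseudocount, no scaling, the gene body alone, a filter on low cover, a replicate block and leaving out each list were tried. Group overlap relative to genome-wide cover, the ranks of upstream minus body cover, and CTD results without its outlying lists, were added after seeing the data.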

Additional observations from a re-analysis of the deposited data

How the results depend on the processing

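In H3K36me2, limma called 0 of 19970 genes, with 5110 at an unadjusted p under 0.05. It called 151 genes with peaks of −log10 p of 3 or more, 344 over the gene body alone, 655 by peak centres, 825 after a filter on low cover and 890 with a pseudocount of 5. It called 7414 genes with peaks overlapped by the other replicate and 10172 with peaks overlapped over 50% of their length, settings that couple the replicates by construction. For the other settings the cause was not tested. With −log10 p of 2 or more, no scaling or any list left out it called 0. Members called were 1 (COL5A1) with overlapped peaks, the pseudocount of 5 or the filter, and 3 (COL5A1, FN1, RUNX2) with 50% overlap. COL5A1 was negative in every setting run, from −0.35 at −log10 p of 3 (adjusted p = 0.609 in limma) to −1.23 over the gene body, and from −0.86 to −1.20 with a list left out. In CTD, limma called 0 genes (535 unadjusted), 162 with overlapped peaks and 1111 with 50% overlap, where 1 member (COL1A2) was called. The replicate numbers did not pair the lists (same-number correlations of 0.017 in H3K36me2 and −0.162, 0.00814 and −0.324 in CTD), and a replicate block gave 0 calls in both marks, with 4924 and 309 genes at an unadjusted p under 0.05. Members with groups apart in H3K36me2 became 2 higher and 2 lower relative to genome-wide cover (an alternative chosen after seeing the data; 17.1% and 43.1% of all genes), 1 higher and 3 lower over the gene body (5.93% and 37.4%), and 2 higher and 3 lower by peak centres (7.99% and 32.6%). In CTD they became 1 higher relative to genome-wide cover (4.82%), 1 higher and 1 lower over the gene body (4.96% and 2.39%), and 0 to 2 higher with a list left out (8.45% to 17%). The following log2 differences, none past the test, changed sign. In H3K36me2 these were RUNX2 −0.011 and SPARC −0.11 without scaling, COL1A1 0.024 with overlapped peaks, COL5A2 0.26 and FN1 −0.69 at −log10 p of 2, COL1A2 −0.56, COL3A1 0.60 and COL5A2 1.11 at 3, COL5A2 0.16 at 50% overlap, COL5A2 0.065, FN1 −0.051 and SPARC −0.70 by centres, COL5A2 0.018 with the pseudocount of 5 and 0.074 over the body. In CTD they were RUNX2 −0.18, MSX2 0.064 and COL5A1 0.23 at −log10 p of 2, COL1A2 0.032, COL5A2 −0.024 and FN1 −0.15 at 3, RUNX2 −0.12 at 50% overlap, MSX2 2.97 and COL1A1 −0.0014 over the body, and COL3A1 −0.061 by centres. With a list left out, H3K36me2 differences ran from −0.11 to 0.022 for COL1A1, −0.49 to 0.016 for COL3A1, −0.082 to 0.051 for COL5A2, −0.0067 to 0.61 for FN1 and −0.067 to 0.14 for SPARC. CTD differences ran from −0.041 to 0.18 for RUNX2, −0.40 to 0.41 for MSX2, −0.025 to 0.83 for COL1A1, −0.48 to 0.094 for COL1A2, −0.57 to 0.65 for COL3A1, −0.35 to 0.082 for COL5A1 and −0.17 to 0.42 for COL5A2. CTD cover over all member windows then differed by −0.708 to 2.42 percentage points. Where 1 list remained in a group, its spread was taken from the other group. The peak lists hold no read counts, so limits from depth were not computed.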
